A study of Mus musculus with 3 samples.

Results

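SNARE proteins, synaptotagmins, their regulators and Rab GTPases were followed as the machinery that moves and fuses secretory vesicles. The members were all probes on the array whose annotated gene symbol belonged to the families Syt, Stx, Stxbp, Vamp, Cplx, Unc13, Rims or numbered Rab, together with Snap23, Snap25, Snap29 and Syp. This gave 180 probes of 122 genes, among 23978 named probes of 16593 genes. The choice used symbols alone and no measured value.

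The data comprised 3 replicate arrays (Illumina MouseRef-8 v2.0, read in 1 colour) of sorted cells from the pancreas of Rag1-/- mice, whose mature lymphocytes do not form. An adenovirus had been injected into the splenic lobe, the islets were removed at harvest, and Cherry-positive cells were sorted from the digested acinar fraction. All 3 samples carry the name induced delta and the series title gives day 10, while the extraction protocol and the design text speak of induced beta cells. The labels do not name the gene that the virus carried, nor say whether each sample came from its own animal. No untreated, native islet or unsorted sample was analysed, so there was 1 group, no comparison between groups and no test. The spread given below is that between these 3 samples, which may be technical.

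Membrane fusion in the secretory pathway is driven by SNARE proteins: R-SNAREs on the vesicle (the Vamp family) zip together with Q-SNAREs on the target membrane (the syntaxins and the Snap proteins). Sec1/Munc18 proteins, among them Stxbp2 and Stxbp3, guide this assembly. Munc13 and RIM proteins prime and dock vesicles, complexins clamp the assembled complex, and synaptotagmins act as calcium sensors. Rab GTPases mark the vesicle's route before fusion. The pancreas holds different versions of this machinery. Islet cells are known for neuronal forms such as Stx1a, Snap25, Vamp2 and Rab3a, and acinar cells release zymogen granules with Snap23, Vamp8, Stxbp2, Rab3d and Rab27b.

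Transcripts of this machinery were detected for most of the genes measured. The detection p-value places a probe among the negative controls of its array. A gene counted as detected if at least 1 of its probes had a detection p-value under 0.05 on each of the 3 arrays. By this rule 68 of the 122 genes were detected (55.7%), against 40.9% of all 16593 named genes. A further 7 genes were above background on 1 or 2 arrays and 47 on none. By probe, 80 of 180 were detected (44.4%), against 33% of all 25697 probes. The member count was 60 at a detection p-value under 0.01 (35.4% of all named genes), 61 with p-values adjusted within each array (36.8% of all) and 72 where 2 of 3 arrays sufficed (44.7% of all). Genes with several probes were detected more often in the array as a whole (54.3%, against 35.5% of genes with 1 probe). Of the members with several probes 27 of 41 were detected (65.9%), and of those with 1 probe 41 of 81 (50.6%).

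By class, 17 of 23 SNARE genes (73.9%) and 35 of 57 Rab GTPases (61.4%) were detected. Of the 34 regulators of release, meaning syntaxin-binding proteins, primers, clamps, synaptotagmins and synaptophysin, 12 were (35.3%). Within the SNAREs, the vesicle R-SNAREs were detected for 6 of 7 genes (85.7%), the Q-SNAREs of inner membranes for 7 of 9 (77.8%) and those of the plasma membrane for 4 of 7 (57.1%). Synaptotagmins and synaptophysin were detected for 6 of 18 (33.3%) and primers and clamps for 3 of 11 (27.3%). The shares of the release regulators and of their 2 groups named last lie near or below those of all named genes (40.9%) and of all genes with 1 probe (35.5%). The SNARE and Rab GTPase shares lie above both. With so few genes in each role, nothing is read from these shares.

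**Figure D1:**
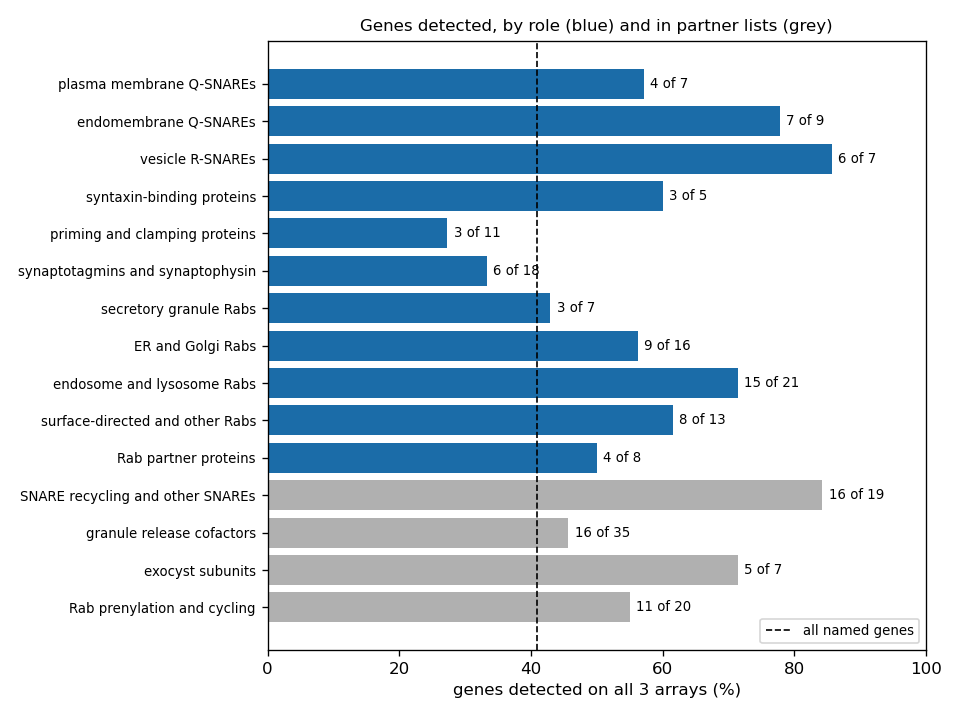
Share of genes detected on all 3 arrays, in percent, for each role of the machinery (blue) and for 4 lists of partner genes (grey), with the number detected of the number measured at each bar and the share of all named genes, 40.9%, as a dashed line. The bars run from 3 of 11 primers and clamps to 6 of 7 vesicle R-SNAREs, and a role of so few genes moves far with each gene.

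Levels are given as log2 intensity after background correction and quantile normalization, on which scale the detection limit was 4.83 for replicate 1, 4.77 for replicate 2 and 4.75 for replicate 3. Where 3 values stand together they are those of replicates 1, 2 and 3 in that order, and means are given ± SD (n = 3 arrays). Genes with several probes are represented by the brightest. Levels near the limit depend on the background correction: without it Unc13d, at 4.89 with it, read 6.13 and Syt5, at 4.99 with it, 6.17, while Rab3d (11.77) read 11.79. Probes differ in efficiency, so a level says how far 1 probe stood above background and is not set against that of another gene. Each array reads many cells at once, so few cells with much of a transcript and many cells with little of it cannot be told apart.

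Among the SNAREs of the plasma membrane, the probe of the syntaxin of neurons and islet cells was detected, and that of its usual partner was not. Stx1a read 9.77, 9.61 and 9.66 (9.68 ± 0.083), from deposited intensities of 873, 834 and 880. All 3 arrays placed it far above the limit. Snap25, which pairs with Stx1a in neurons and beta cells, read 4.34, 4.29 and 4.27 from its 1 probe, below the limit on every array. Its detection p-values were 0.556, 0.739 and 0.82. Snap23, the form of Snap25 found in most tissues and on zymogen granules, read 7.85, 8.19 and 8.03 (8.02 ± 0.17), while a second Snap23 probe stayed at background (4.45 ± 0.074).

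Of the syntaxins of epithelial cells, 2 were detected. Stx4a, the syntaxin of the basolateral surface, read 6.62, 6.62 and 6.55 (6.60 ± 0.041). Stx3, which acts at apical surfaces and on zymogen granules, read 6.43, 6.54 and 6.29 (6.42 ± 0.13) on 1 of its 3 probes, with the other 2 at background. Stx2, also known from the apical surface of acinar cells, was below the limit on all arrays (4.34, 4.48 and 4.42). Stx19, a syntaxin of epithelia, was above background on the array of replicate 3 alone (4.33, 4.54 and 4.80).

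Vesicle R-SNAREs were detected with 1 exception. Vamp2, the R-SNARE of synaptic vesicles and insulin granules that zymogen granules also carry, read 8.32, 8.04 and 8.07 (8.14 ± 0.16). Vamp8, which serves regulated release from acinar cells, read 7.95, 7.85 and 7.74 (7.85 ± 0.10) on 1 of its 2 probes. Its other probe was above background on 2 arrays only (4.78 ± 0.12). Vamp3, of recycling endosomes, read 9.02, 8.83 and 8.90 (8.92 ± 0.098). The brightest probes of these 3 genes were far above the limit on every array. Vamp4, of the trans-Golgi network, read 6.93, 6.94 and 6.79, and Vamp7, of late endosomes and lysosomes, 5.93, 6.12 and 6.31. Vamp1, a close relative of Vamp2 in neurons, read 5.42, 5.39 and 5.53 and was within 1 log2 unit of the limit. Vamp5, known from muscle, was at background (4.24 ± 0.024).

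Q-SNAREs of inner membranes were detected for 7 of 9 genes (77.8%, against 40.9% of all named genes). Stx5a, the syntaxin of ER-to-Golgi and intra-Golgi traffic, read 11.23, 11.41 and 11.30 (11.32 ± 0.090). Stx12, of recycling endosomes, read 8.59, 8.80 and 8.64 (8.68 ± 0.11). Stx7 (7.34 ± 0.091) and Stx8 (7.18 ± 0.11), partners in late endosome fusion, and Snap29 (7.27 ± 0.076), which acts in autophagosome fusion, were detected. Stx17, the syntaxin of autophagosomes (6.60 ± 0.10), and Stx6, of the trans-Golgi network (6.33 ± 0.056), completed the 7 that were detected. The 2 that were not, each with 1 probe, were Stx16 (4.36, 4.52 and 4.74), of the trans-Golgi network, and Stx18 (4.26, 4.42 and 4.41), of the ER.

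**Figure D2:**
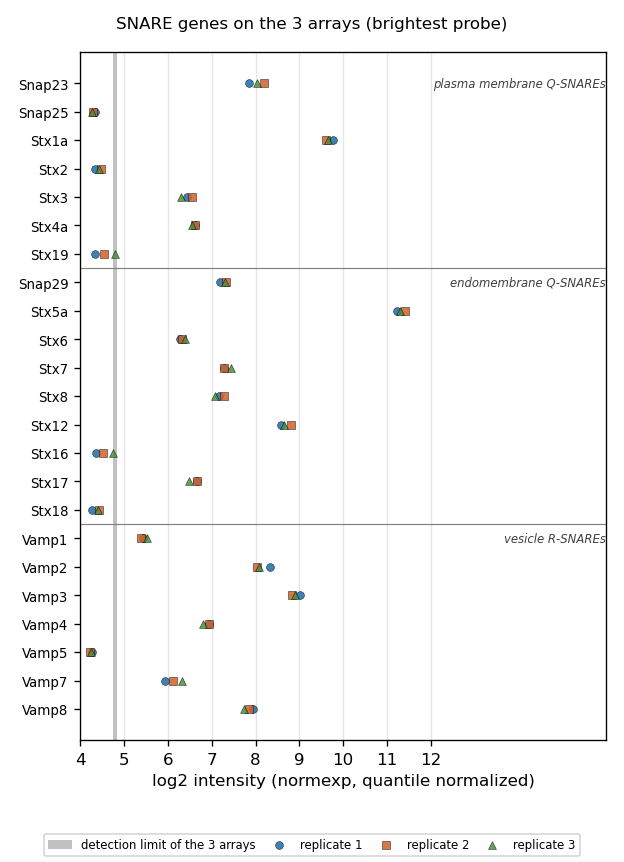
Log2 intensity of the brightest probe of each of the 23 measured SNARE genes on the 3 arrays (circle, square and triangle for replicates 1, 2 and 3), with genes in rows by role and the detection limits of the arrays as a grey band. The points of 17 genes lie right of the band on all arrays, and those of Snap25, Stx2, Stx16, Stx18 and Vamp5 lie at or left of it.

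Among the syntaxin-binding proteins, the Sec1/Munc18 form of epithelial and acinar cells was detected and the Sec1/Munc18 form known from basolateral surfaces was not. Stxbp2, also called Munc18-b, read 9.76, 9.74 and 9.75 (9.75 ± 0.0084). This was the smallest SD of the 68 detected member genes. Stxbp3, the form that pairs with Stx4a, was at background (4.49, 4.37 and 4.39). Stxbp5l, a tomosyn that holds syntaxins in an inactive state, read 6.21, 6.03 and 5.97 (6.07 ± 0.13). Stxbp4, which binds Stx4a, read 5.59, 5.69 and 5.40 (5.56 ± 0.14). The second probes of Stxbp5l (4.61 ± 0.026) and Stxbp4 (4.54 ± 0.079) were at background. Stxbp6, also called amisyn, was at background (4.31 ± 0.023).

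Primers and clamps were detected for 3 of 11 genes (27.3%, against 40.9% of all named genes), 1 well above the limit and 2 near it. Unc13b, also called Munc13-2, a priming factor of neurons and secretory cells, read 9.01, 9.04 and 8.92 (8.99 ± 0.064). Unc13d, also called Munc13-4, a priming factor of blood cell granules, read 4.92, 4.93 and 4.82, within 0.2 log2 units of the limit. Rims3, a short RIM protein, read 5.10, 5.59 and 5.57 (5.42 ± 0.27). Its array of replicate 1 was the low one, and it lost its call, as did Unc13d, with a stricter threshold. Unc13c, of the cerebellum, was above background on the array of replicate 1 alone (4.87, 4.53 and 4.45). None of the 4 complexins was detected on any array, with Cplx1 at 4.51 ± 0.11, Cplx2 at 4.57 ± 0.093, Cplx3 at 4.36 ± 0.013 and Cplx4 at 4.44 ± 0.10. The long RIM proteins, which tether vesicles through Rab3, were at background too, with Rims2, the form of islet cells, at 4.28 ± 0.048 and Rims1 at 4.31 ± 0.065, as was Rims4 (4.54 ± 0.098).

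Of 17 measured synaptotagmins 5 were detected (29.4%, against 40.9% of all named genes). Syt11, which does not bind calcium and acts in membrane retrieval, read 7.18, 7.28 and 7.33 (7.26 ± 0.078). Syt9, a calcium sensor of dense-core granules, read 5.45, 5.52 and 5.43 (5.47 ± 0.043), and Syt13, known from endocrine precursors and islet cells, 5.32, 5.37 and 5.47 (5.39 ± 0.077). Both were above the limit by less than 1 log2 unit, with the arrays close together. Syt16 read 5.36, 5.55 and 5.21, and Syt5, another sensor of dense-core granules, 4.90, 5.13 and 4.94. Syt7, the main slow calcium sensor of islet granules, was at background on each of its 3 probes (4.49 ± 0.027 on the brightest). Syt1, the fast sensor of synapses, was at background (4.32, 4.38 and 4.34), and so was Syt4, of neuroendocrine granules (4.25, 4.45 and 4.35). The other 9 at background were Syt2, Syt3, Syt6, Syt8, Syt10, Syt12, Syt14, Syt15 and Syt17. Syp, which encodes synaptophysin, the membrane protein of small synaptic-like vesicles used to recognise neuroendocrine cells, read 7.86, 7.90 and 7.92 (7.89 ± 0.033).

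The Rabs of secretory granules were detected for 3 of 7 genes (42.9%, against 40.9% of all named genes). Rab3d, the Rab3 form of zymogen granules, read 11.76, 11.74 and 11.80 (11.77 ± 0.030). Rab3a, the form of synaptic vesicles and islet granules, read 6.37, 6.54 and 6.47 (6.46 ± 0.081). The forms Rab3b (4.38 ± 0.030) and Rab3c (4.36 ± 0.055) were at background. Rab27a, which insulin granules use, read 9.38, 9.27 and 9.27 (9.30 ± 0.065), while none of the 3 probes of Rab27b, the form known from zymogen granules, was above background on any array (4.41, 4.75 and 4.66 on the brightest). Rab37, of secretory granules, was at background as well (4.41 ± 0.082). How far probes of such close relatives bind each other's transcripts was not tested, since no probe sequence was used.

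**Figure D3:**
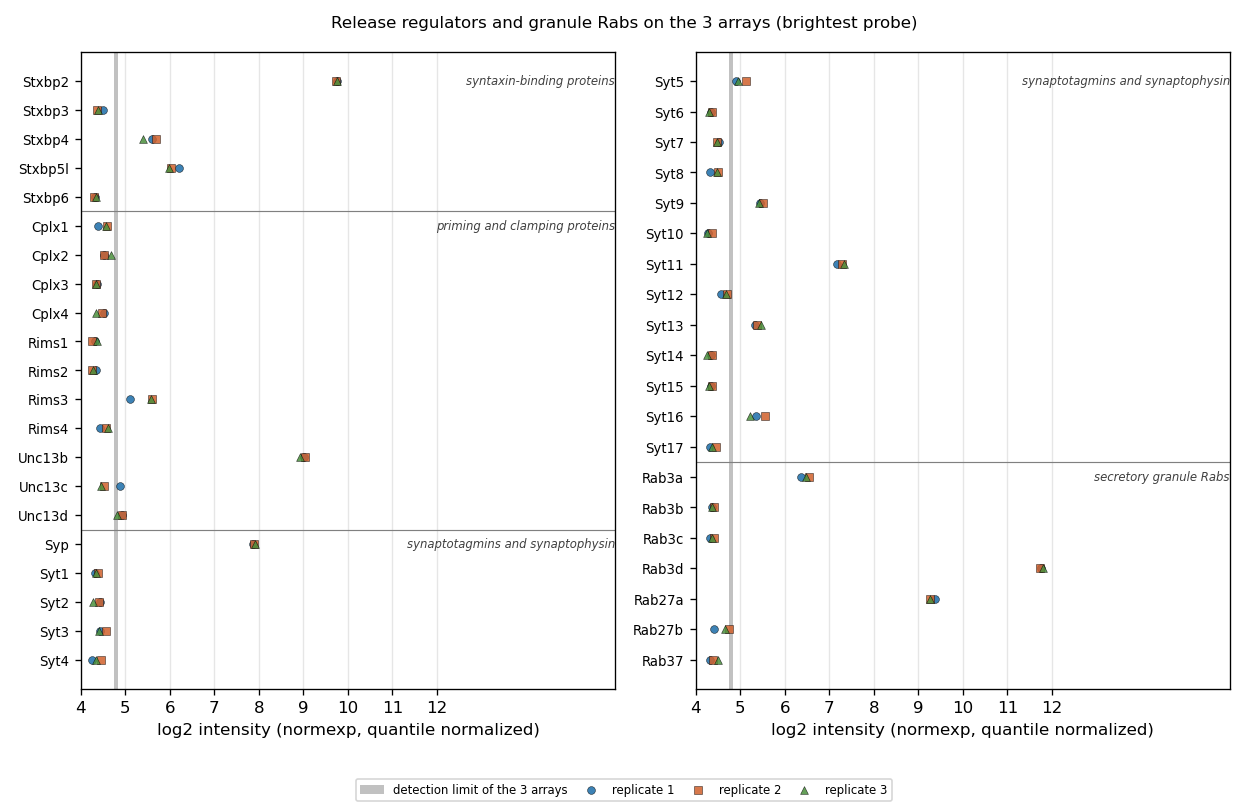
Log2 intensity of the brightest probe of each syntaxin-binding protein, priming or clamping protein, synaptotagmin, synaptophysin and granule Rab on the 3 arrays, with genes in rows by role and the detection limits as a grey band. Rab3d (11.77), Stxbp2 (9.75), Rab27a (9.30) and Unc13b (8.99) lie far right of the band, while the complexins and most synaptotagmins lie at or left of it.

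Genes of neurons and of neuroendocrine cells were set beside these values, since both use the same release proteins. Of 9 neuron markers 1 was detected on all arrays, Mapt, which encodes tau (5.91 ± 0.068), and Tubb3 (4.40 ± 0.13), Stmn2 (4.36 ± 0.040) and Nefl (4.35 ± 0.059) were at background. All 8 pan-endocrine markers were detected, with Chga, which encodes chromogranin A, at 9.78 ± 0.20. The weakest of the 8, Scg3 (5.46 ± 0.30) and Neurod1 (5.24 ± 0.26), were within 1 log2 unit of the limit. Of the delta cell markers 4 of 6 were detected, with the hormone gene Sst at 13.81 ± 0.046. Ghsr (4.58 ± 0.13) and Crhr2 (4.50 ± 0.035) were above background on no array. Of the beta cell markers 2 of 6 were detected, with the insulin gene Ins2 at 11.38 ± 0.039. Mafa (4.53 ± 0.01), Slc2a2 (4.46 ± 0.093) and Slc30a8 (4.58 ± 0.14) were above background on no array, and G6pc2 on 1. All 7 acinar markers were detected, with the carboxypeptidase gene Cpa1 at 14.50 ± 0.019. Markers of other cells of the gland or the blood were detected for 5 of 7 macrophage genes, 2 of 6 platelet genes, 2 of 6 endothelial genes and 3 of 6 mesenchyme genes. The share over all named genes was 40.9%. Lyz2 of macrophages (10.13 ± 0.30) and Pf4 of platelets (7.01 ± 0.27) were among those detected, and cells of both kinds also carry Vamp8. Ptprc (4.40) and Itgam (4.34) of the macrophage list were above background on no array. Neither were Ppbp (4.29), Gp1bb (4.26) and Treml1 (4.42) of the platelet list. The part of each cell type in the levels of the trafficking genes was not tested.

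Rabs of the ER and Golgi were detected for 9 of 16 genes (56.2%, against 40.9% of all named genes). Rab2a, which acts between ER and Golgi, read 11.46, 11.65 and 11.60 (11.57 ± 0.10), while its relative Rab2b was at background (4.37 ± 0.097). Rab1a, which directs ER-to-Golgi transport, read 7.40, 7.57 and 7.44 (7.47 ± 0.088). Its relative Rab1b had 3 probes, each above background on 1 or 2 arrays (4.91, 4.64 and 5.04 on the brightest). Rab34 (6.95 ± 0.13), Rab43 (6.13 ± 0.052) and Rab6a (5.89 ± 0.088), Golgi Rabs, were detected, as were Rab33b, Rab6b, Rab36 and Rab39b at mean levels of 5.09 to 5.61. Rab18, known from lipid droplets and the ER, was above background on 2 arrays (4.65, 5.04 and 4.89). Rab19, Rab30, Rab33a and Rab39 were not above background on any array.

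Rabs of endosomes and lysosomes were detected for 15 of 21 genes (71.4%, against 40.9% of all named genes). Rab11b, of recycling endosomes, read 11.21, 11.25 and 11.25 (11.24 ± 0.025), whereas Rab11a, which has the same site of action, read 4.26, 4.39 and 4.47 from its 1 probe, below the limit on every array. Rab14, which links endosomes and Golgi, read 10.23, 10.35 and 10.37 (10.31 ± 0.076). Rab5c, of early endosomes, read 9.56, 9.77 and 9.75 (9.69 ± 0.12), and Rab5a, of the same compartment, 5.19, 4.94 and 5.29 (5.14 ± 0.18). Both were above the limit on all arrays. Rab7, of late endosomes, read 8.58, 8.63 and 8.58 (8.60 ± 0.031) on 1 of its 3 probes, with the other 2 at background. Rab35, a Rab of rapid recycling, read 7.72, 7.76 and 7.84 (7.77 ± 0.060). Rab25, an epithelial relative of Rab11, was also detected (7.21 ± 0.054), as was Rab31 (7.34 ± 0.033). Rab24 (7.03 ± 0.13), Rab4a (6.76 ± 0.11), Rab21 (6.75 ± 0.17) and Rab22a (5.98 ± 0.080) made up the rest of the detected genes, together with Rab4b, Rab7b and Rab9. Rab9b was above background on 2 arrays (4.77, 4.97 and 4.85), and Rab15, Rab17, Rab20 and Rab42 on none.

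Surface-directed and other Rabs were detected for 8 of 13 genes (61.5%, against 40.9% of all named genes). Rab8a and Rab8b, which carry vesicles from the Golgi to the apical surface, read 10.49, 10.64 and 10.57 for Rab8a (10.57 ± 0.076) and 8.40, 8.47 and 8.46 for Rab8b (8.44 ± 0.040). Rab28, known from cilia, read 10.49, 10.43 and 10.38 (10.43 ± 0.053) on 1 probe and 6.39 ± 0.12 on the other. Rab40c, of a subfamily that joins ubiquitin ligases, read 9.03, 9.07 and 9.03 (9.04 ± 0.022), and Rab32, of mitochondria and lysosome-related organelles, 8.01, 8.21 and 7.90 (8.04 ± 0.16). All 5 were far above the limit on every array. Rab29, of the Golgi and lysosomes, was detected as well (6.62 ± 0.12). Rab10, which directs basolateral transport, was near the limit (4.91, 4.88 and 5.12), as was Rab13 (5.02, 5.21 and 5.37). Rab38, a relative of Rab32 in pigment cells, was above background on the array of replicate 3 alone (4.63, 4.67 and 4.90), and Rab12, Rab23, Rab40b and Rab44 were on no array.

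Of 8 proteins that carry a Rab's name as its partner 4 were detected (50%, against 40.9% of all named genes). Rab11fip5, an effector of Rab11, read 9.90, 9.94 and 9.89 (9.91 ± 0.027), and Rab3gap1, a subunit of the enzyme that switches Rab3 off, 9.16, 9.23 and 9.19 (9.19 ± 0.032). Rab11fip3 (7.03 ± 0.060) was detected, and so was Rab3ip, also called rabin8, an activator of Rab8, close to the limit (5.06, 5.06 and 5.16). Rab5if was above background on 2 arrays (5.08, 5.21 and 4.75). Its detection p-value on the array of replicate 3 was 0.0501. Rab11fip2, Rab11fip4 and Rab3il1 were at background.

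**Figure D4:**
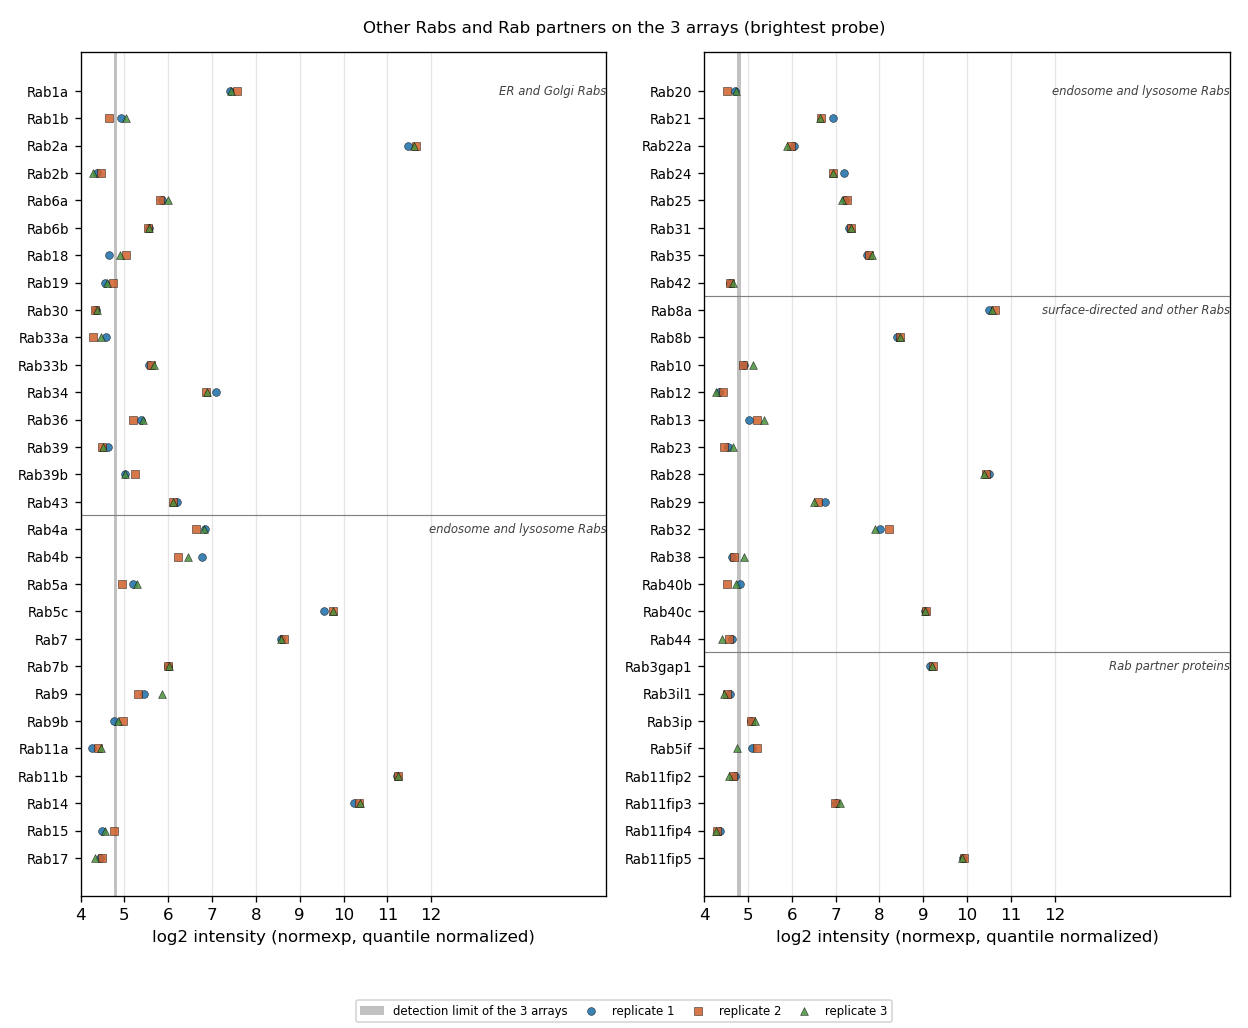
Log2 intensity of the brightest probe of the other Rab GTPases and of proteins named as Rab partners on the 3 arrays, with genes in rows by role and the detection limits as a grey band. Close relatives lie on different sides of the band, as Rab11b (11.24) and Rab11a (4.37), or Rab2a (11.57) and Rab2b (4.37), do.

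Partner genes of the same pathway, taken from 4 lists, were detected for 16 of 19 SNARE recycling genes and other SNAREs (84.2%), 5 of 7 exocyst subunits (71.4%), 11 of 20 genes of Rab prenylation and cycling (55%) and 16 of 35 granule release cofactors (45.7%), against 40.9% of all named genes. Nsf, the ATPase that takes used SNARE complexes apart, read 6.98 ± 0.030, and its adaptors Napa and Napg, the SNAP adaptor proteins, 6.92 ± 0.065 and 8.88 ± 0.064. Use1, an ER SNARE, read 10.93 ± 0.065, Vti1b, an endosomal one, 9.56 ± 0.062, and Sec22b, which shuttles between ER and Golgi, 9.34 ± 0.065. Of the granule cofactors, Scamp1, a carrier membrane protein, read 11.40 ± 0.025, and Cadps2, which primes dense-core vesicles, 9.51 ± 0.088. Exoc8 of the exocyst, which tethers vesicles at the surface, read 8.55 ± 0.10, and Rabggtb, a subunit of the enzyme that prenylates Rabs, 9.17 ± 0.051. Among the genes of Rab prenylation and cycling that were not detected, Chm (4.36 ± 0.065) was above background on no array and Gdi2 (4.77 ± 0.078) on 1. Of the effectors that tie Rab3 or Rab27 to granules, Sytl1 (8.77 ± 0.023), Sytl4, also called granuphilin (6.37 ± 0.13), and Myrip (5.23 ± 0.34) were detected. Sytl2, Sytl3 and Mlph were above background on 1 array each, and Rph3a (4.37 ± 0.013), Exph5 (4.30 ± 0.030), Sytl5 and Rph3al on none.

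Probes of the same gene often disagreed. Of 27 member genes with several probes and at least 1 probe detected on all arrays, 20 also had a probe detected on none (74.1%), against 72% of such genes over the whole array. Examples are Stx5a, whose probes had means of 11.32 and 4.68, Rab11fip5 with 9.91 and 4.52, Rab7 with 8.60 and 4.23, Snap23 with 8.02 and 4.45, Syt11 with 7.26 and 4.43, and Stx8 with 7.18 and 4.60. The others were Rab24, Rab34, Stx3, Stx6, Rab43, Rab22a, Vamp7, Rab6a, Stxbp5l, Rab9, Stxbp4, Vamp1, Rab13 and Rab10. A gene whose only probe was at background, as those of Snap25, Stx2 and Rab11a were, is therefore not shown to be silent.

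Around the detection threshold, the 5 detected genes nearest to it had a highest detection p-value over the arrays of 0.0226 (Rab13 and Rab39b), 0.0313 (Unc13d) and 0.0326 (Rab10 and Syt5). The 5 nearest genes outside it had 0.0501 (Rab5if), 0.0664 (Rab9b), 0.0927 (Rab1b), 0.1 (Rab18) and 0.108 (Rab38). The detected member genes had mean levels of 4.89 to 11.77 (median 6.99), beside a median of 6.89 over all detected genes. The 47 on no array had mean levels of 4.24 to 4.69.

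After quantile normalization, which gives all arrays the same distribution of intensities, the arrays differed little in these genes. The median SD over the 80 detected member probes was 0.0892 log2 units, beside 0.0872 over all 8486 detected probes, and 5 of the 80 (6.25%) exceeded the 90th percentile of all detected probes (0.191), which 10% of all detected probes exceed. Spread was smaller for bright probes, with a median SD of 0.0762 for the 38 member probes at a level of 7 or above and 0.125 for the 25 under 6. Over all detected probes these medians were 0.0673 and 0.119. Set among the 500 detected probes nearest in level, the SDs of the member probes had a median percentile of 57. Among the brightest probe of each gene, Rab9, of late endosomes (5.45, 5.30 and 5.86), Rims3 and Rab4b, of recycling endosomes (6.78, 6.23 and 6.46), had the largest SDs, 0.29, 0.27 and 0.27. The array of replicate 3 was the high one for Rab9, and that of replicate 1 for Rab4b. Vamp7 (0.19), Rab5a (0.18) and Rab13, of tight junctions (0.17), followed. At the other end, Stxbp2 (0.0084), Rab6b (0.0098) and Rab7b (0.019) had the smallest. The median deviation of the 68 detected genes from their own means was -0.0188 for replicate 1, 0.00915 for replicate 2 and -0.00987 for replicate 3. The range of these medians was 0.028, beside 0.00829 for the 6784 genes of the array detected by their brightest probe. A median over few genes varies more than a median over many, so nothing is read from the difference between these ranges. Without replicate 1 the members' range was 0.0138 and that of all detected genes 0.00692, and without replicate 3 they were 0.0325 and 0.00235. With median scaling in place of quantile normalization these ranges were 0.167 for the members and 0.152 for all detected genes. The median SDs were then 0.129 over the detected member probes and 0.116 over all detected probes.

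**Figure D5:**
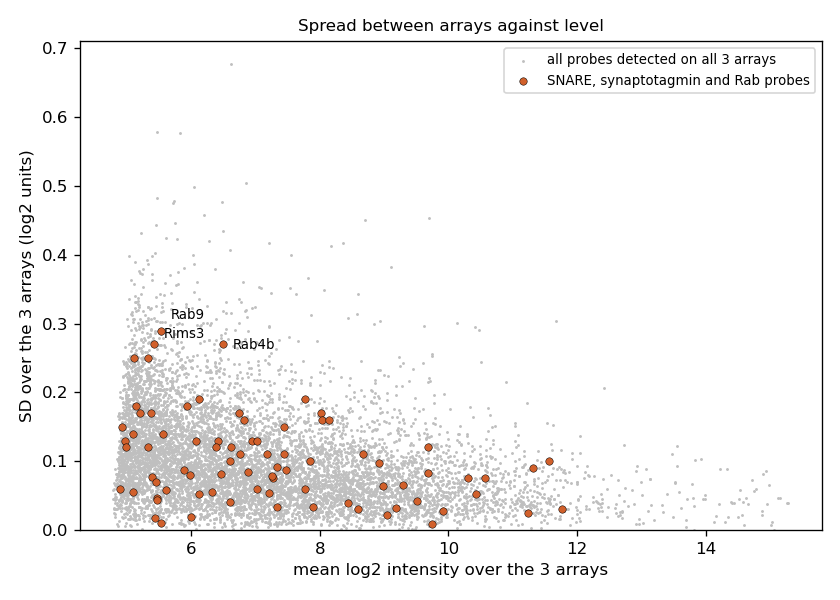
SD over the 3 arrays in log2 units against mean log2 intensity for the 8486 probes detected on all arrays (grey) and the 80 detected probes of SNARE, synaptotagmin and Rab genes (orange). The member probes lie among the other probes, with Rab9, Rims3 and Rab4b highest.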

How the data were processed

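Biotin-labelled total RNA of 3 samples was hybridised to Illumina MouseRef-8 v2.0 beadchips, per the labels. Per the file headers, the deposited table gives each probe an average bead intensity and a detection p-value. The authors' intensity columns share 1 mean (211.8) and differ in their medians (65.9, 59.5 and 57.2), so the arrays had been scaled before deposit; no background had been subtracted (lowest values 41.8, 38.7 and 36.0). A table of the authors' processed intensity values, which ranks probes as the first does, served as an alternative. The sources used here name neither its normalization target nor the scanner software, slide or scan.

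Intensities were corrected by normexp, with negative controls inferred from the detection p-values and an offset of 16, quantile normalized and taken to log2 (limma 3.58.1, R 4.3.3). The steps were tested on simulated arrays of equal scale, for levels far above background. The error of levels near the detection limit was not checked. The arrays detected 9145, 9592 and 9713 of 25697 probes (35.6%, 37.3% and 37.8%), and 8486 on all 3. Their number limits the precision. Symbols came from GEO's platform annotation and were checked by Entrez identifier against RefSeq (GRCm38.p6): 23962 of 23978 named probes matched, 0 changed, and 1719 were unnamed here.

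Roles, partner lists and marker lists were written from general knowledge, with the members and earlier results of these data known. Every measured gene of the release roles was named, and elsewhere the 5 brightest detected genes, those at background, those near the threshold, the extremes of spread and the widest probe gaps. Alternatives changed the detection rule, the background correction, the scaling, the table and the arrays used.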

Additional observations from a re-analysis of the deposited data

How the results depend on the processing

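The number of member genes detected was 60 at a detection p-value under 0.01, 61 with p-values adjusted within each array, 72 where 2 of 3 arrays sufficed, and 69 to 70 when 1 array was left out, beside 68; it was also 68 from the brightest probes alone. Of the roles, the count moved by over 1.5 times for primers and clamps alone, to 1 of 11, at 0.01 and with adjusted p-values, where Rims3 and Unc13d lost their calls (highest detection p-values over the arrays of 0.0188 and 0.0313). Rab10, Rab13, Rab39b, Rab3ip and Syt5 lost theirs under both settings and Rab5a at 0.01. The calls of Rab18 and Rab9b were gained without replicate 1, that of Rab1b without replicate 2 and that of Rab5if without replicate 3. The median level of the detected genes was 7.39 with no background correction, 7.33 with an offset of 50 and 7.38 in the authors' processed table, beside 6.99; single gene levels moved by more than their SD over the arrays for 59, 59 and 52 of 68 genes, as Unc13d (6.13, 5.99 and 6.02, beside 4.89) and Syt5 (6.17, 6.04 and 6.08, beside 4.99) did; the first 2 keep or add background by construction, and the cause in the third was not tested. Median scaling widened the range between the arrays' medians to 0.167. No paired analysis was possible because there is 1 group, and no slide was given to use as a block. Small differences cannot be resolved near the detection limit.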
